A study of Mus musculus with 9 samples.

Results

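The B cell genes Ms4a1, Cd79a, Cd79b, Cr2, Cd22, Blk and Pax5 were examined in the mouse jejunum. They are the 7 genes of that list whose symbols stood in the symbol column of the array, among 15674 genes in all, and they were read by 8 probes, since Cd79a had a pair of probes and the others 1 probe each. RNA was hybridised to 9 Applied Biosystems arrays with 1 colour, 1 array per animal. The animals were male, 7 weeks old and of the outbred stock OF1. They belonged to generation 3 of families kept throughout on feed B, feed K or feed G, with 3 mice per feed, and water and feed were free in all groups. Feed was taken away 3 hours before sampling, while water stayed available. The mice of feed B carried the numbers 7, 8 and 10, those of feed K the numbers 1, 3 and 4, and those of feed G the numbers 4, 8 and 11. The composition behind the letters is not given in the sources used here, and none of the feeds was treated as a control. Mice were not randomised for the time of day at sampling. The small intestine was divided into fragments of similar length, and a short segment of jejunum around the angular point was taken. A set amount of intestinal tissue was homogenised, and no separation of epithelium, muscle and lymphoid tissue is described.

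B cells recognise antigen with a membrane immunoglobulin that signals through a pair of chains encoded by Cd79a and Cd79b, and the kinase encoded by Blk is among the first to act on these chains. The coreceptor encoded by Cr2 lowers the threshold of this signal by binding complement fragments on the antigen, whereas the lectin encoded by Cd22 dampens it. Ms4a1 encodes the surface protein CD20, and Pax5 the transcription factor that maintains B cell identity and is switched off in plasma cells. In the small intestine, B cells collect in Peyer's patches and isolated lymphoid follicles, which are spaced along the gut wall, whereas plasma cells lie scattered in the lamina propria of the villi.

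A signal-to-noise ratio of 3, the manufacturer's threshold, was used to call a probe detected, and between 33.7% and 48.1% of the 33012 probes were detected per array. The lowest share was that of mouse 8 of feed B. Where this ratio is below 1 the scanner's signal equals the noise of the spot, so the order of undetected values among themselves carries little. Of the absorptive cell markers, 8 of 9 matched genes were detected in each of the 9 mice. They mark absorptive cells of the small intestine and do not tell jejunum from ileum. Fabp6, an ileal bile acid binding protein, had log2 signals of 15.81 and 17.84 in mice 7 and 10 of feed B and 19.51 in mouse 11 of feed G, while the highest value among the other mice was 12.19. Ileal transcripts thus differed between mice of the same feed.

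Sequence upstream of the start is shown for Cd79a and Cr2, since these belong to the 4 members that moved together over the mice, as described further on, and had an entry in the RefSeq promoter table used. Of the 7 members, 4 had an entry there (Cd79a, Cr2, Cd22 and Pax5). The 250 bases before the annotated start, build GRCm38.p6, are given 5′ to 3′ on the strand of the gene. Capitals mark matches to motifs of B cell factors: the E-box CAGGTG bound by E2A, the PU.1 core GAGGAA, the octamer ATTTGCAT, and the EBF1 palindrome. Cd79a lies at chr7:24897247-24897496 on the plus strand and Cr2 at chr1:195176720-195176969 on the minus strand.
Cd79a: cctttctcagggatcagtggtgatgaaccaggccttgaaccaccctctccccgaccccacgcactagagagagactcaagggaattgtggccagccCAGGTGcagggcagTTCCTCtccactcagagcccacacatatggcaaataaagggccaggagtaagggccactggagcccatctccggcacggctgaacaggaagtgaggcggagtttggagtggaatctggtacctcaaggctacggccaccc
Cr2: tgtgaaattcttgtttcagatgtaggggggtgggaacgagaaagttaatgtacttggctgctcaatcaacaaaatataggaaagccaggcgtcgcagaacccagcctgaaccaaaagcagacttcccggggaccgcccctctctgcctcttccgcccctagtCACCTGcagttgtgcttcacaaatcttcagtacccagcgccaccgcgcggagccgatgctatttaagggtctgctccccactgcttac
Upstream of Cd79a, the E-box stood 154 bases before the start and the PU.1 core, on the opposite strand (TTCCTC), 140 bases before it. Upstream of Cr2, 1 E-box was found on the opposite strand (CACCTG), 88 bases before the start. On either strand, the E-box was present in 17.2% and the PU.1 core in 23.3% of the 32851 windows of the same length in the table. The octamer was present in 1.6% of the windows and the EBF1 palindrome in 0.779%. Among the 4 members with an entry, the palindrome was found upstream of Cd22 alone. These are matches of letters and no evidence of binding.

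Signals are given as log2 of the quantile-normalized signal unless stated otherwise. Ms4a1, which encodes CD20, was detected in all 9 mice. Its log2 signal was 10.29, 9.04 and 9.66 in mice 7, 8 and 10 of feed B, 7.95, 7.53 and 10.31 in mice 1, 3 and 4 of feed K, and 9.21, 10.21 and 9.54 in mice 4, 8 and 11 of feed G. Mouse 4 of feed K thus had the highest value of all and the other two mice of feed K the lowest, and the highest signal was 6.86 times the lowest. In the signal as scanned, mice 1 and 3 of feed K had 219 and 227, mouse 4 of feed K had 815, and mouse 8 of feed G had the highest value, 1710.

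Cd79a, a signalling chain of the B cell receptor, was also detected in all mice. The mean of its probes was 10.64, 10.16 and 10.60 in mice 7, 8 and 10 of feed B, 7.54, 8.02 and 10.69 in mice 1, 3 and 4 of feed K, and 9.27, 10.82 and 10.01 in mice 4, 8 and 11 of feed G. The range was 9.75-fold, and the lowest values were again those of mice 1 and 3 of feed K. Cd79b, the partner chain, had log2 signals of 9.72, 8.94 and 9.23 in mice 7, 8 and 10 of feed B, 7.70, 6.93 and 9.44 in mice 1, 3 and 4 of feed K, and 7.95, 9.67 and 8.61 in mice 4, 8 and 11 of feed G. Cd79b was below the detection threshold in mouse 3 of feed K alone, where the signal-to-noise ratio was 1.46, and mouse 4 of feed G came close to mouse 1 of feed K.

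The probes of Cd79a differed in how low mouse 3 of feed K was. Probe 1 (ID 898744) was detected in every mouse, with 9.03 in mouse 1 and 10.40 in mouse 3 of feed K against values from 10.69 to 12.18 in the other mice. Probe 2 (ID 461806) was below the threshold in both mice, with 6.04 and 5.64, against values from 7.72 to 10.11 in the others. As scanned, probe 1 had a signal of 1980 at a signal-to-noise ratio of 35.45 in mouse 3, and probe 2 a signal of 44.3 at a ratio of -1.59. After quantile normalization both probes placed mice 1 and 3 of feed K lowest. As scanned, however, probe 1 in mouse 3 of feed K lay above mouse 8 of feed B (1070), mouse 4 of feed K (1790) and mouse 4 of feed G (1890). The mean for mouse 3 thus joins a value close to those of other mice with one at the noise.

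**Figure D1:**
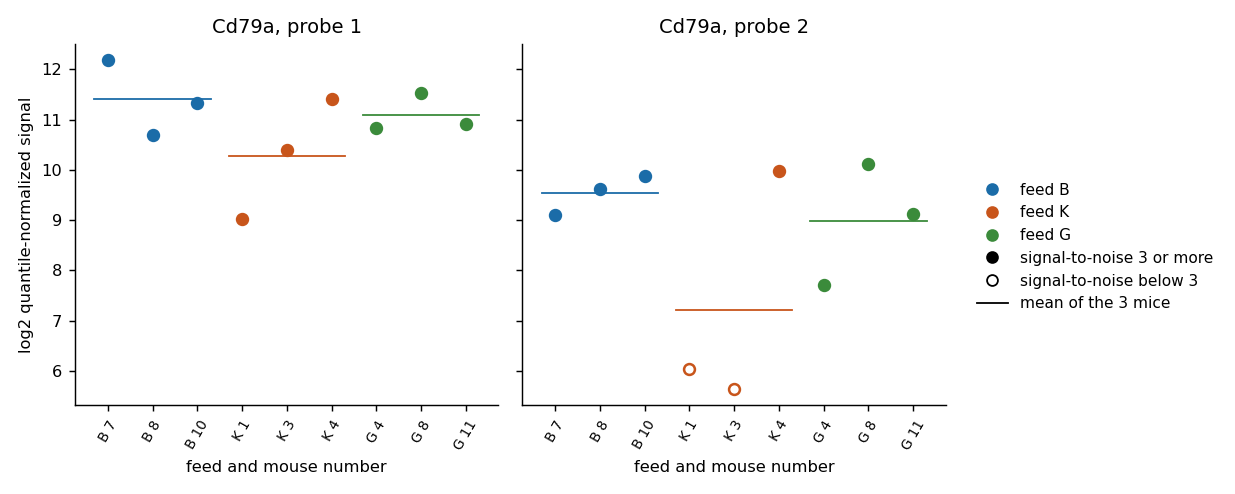
Log2 quantile-normalized signal of the 2 probes of Cd79a in each of the 9 mice, named on the x axis by feed and number. Filled points were detected, open points lay below the threshold (signal-to-noise ratio under 3), and lines are the means of the 3 mice of a feed. Probe 1 was detected in all 9 mice, and probe 2 was undetected in mice 1 and 3 of feed K.

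Cr2, the complement receptor that also marks follicular dendritic cells, was detected in 5 of 9 mice. Its log2 signal was 8.94, 8.48 and 9.26 in mice 7, 8 and 10 of feed B, 6.80, 5.35 and 8.92 in mice 1, 3 and 4 of feed K, and 8.06, 8.81 and 7.63 in mice 4, 8 and 11 of feed G. Mouse 8 of feed B, mice 1 and 3 of feed K and mouse 11 of feed G were below the threshold. The highest value was 9.2 times the lowest detected signal of the array of mouse 3 of feed K. An undetected value can lie above that signal, so this is no lower limit of the range. Cd22, the inhibitory lectin, was detected in 3 mice, mouse 10 of feed B with 7.86 and mice 8 and 11 of feed G with 6.77 and 7.65. The other 6 mice lay between 4.91 and 6.94 without detection, among them all 3 mice of feed K. The level of Cd22 on feed K was therefore only a bound, and the mean of feed B rests on 1 detected value and that of feed G on 2.

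Blk and Pax5 were each detected in 2 of 9 mice, so that they carry little information on single mice. Blk, the receptor-proximal kinase, reached the threshold in mouse 1 of feed K with 7.10 and in mouse 11 of feed G with 7.12, and its values in all mice lay between 6.33 and 7.54. Pax5, the identity factor, reached it in mouse 7 of feed B with 8.32 and in mouse 11 of feed G with 6.82, against 5.13 to 6.70 elsewhere. Mouse 1 of feed K, low in the more abundant members, was thus a mouse in which Blk was detected. The signal-to-noise ratio of these 4 detected values lay between 3.03 and 6.75.

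**Figure D2:**
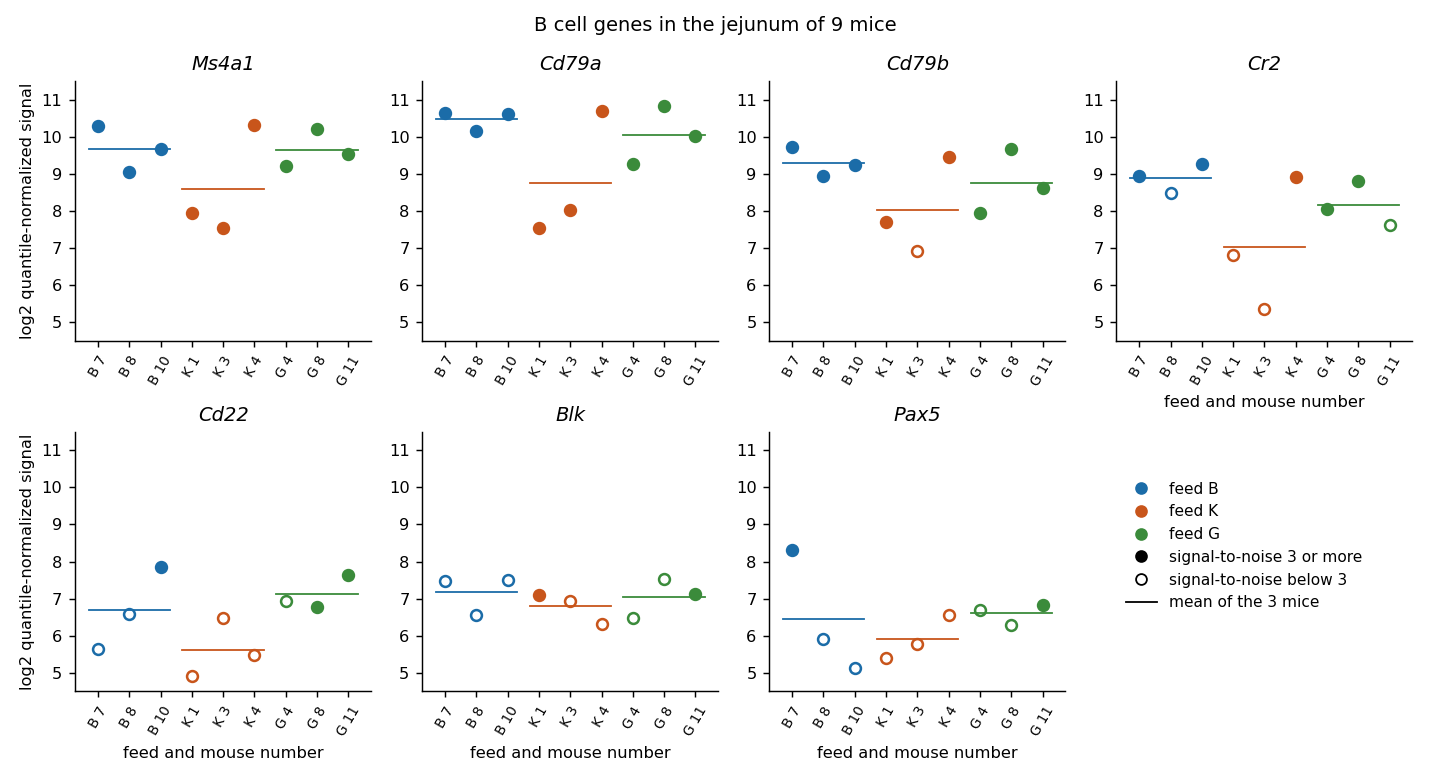
Log2 quantile-normalized signal of the 7 B cell genes in each of the 9 mice, named on the x axis by feed and number. Filled points were detected, open points lay below the threshold of 3 in signal-to-noise, and lines are the means of the 3 mice of a feed. Ms4a1, Cd79a, Cd79b and Cr2 were lowest in mice 1 and 3 of feed K, whereas mouse 4 of feed K was at the level of the high mice of feeds B and G.

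For 4 of the 7 members, Ms4a1, Cd79a, Cd79b and Cr2, the lowest and second lowest values were those of mice 1 and 3 of feed K, a placing found for 2.15% of the 14055 genes with values in all mice. Among the genes detected in at least 3 mice it held for 2.07%. The 4 members are those detected in 5 or more mice, and the count was 3 when signals below the threshold were set to the lowest detected signal of their array, because mouse 8 of feed B then took the second lowest place for Cr2. The highest value was in mouse 4 of feed K for Ms4a1, in mouse 8 of feed G for Cd79a, in mouse 7 of feed B for Cd79b and in mouse 10 of feed B for Cr2, after quantile normalization. With arrays scaled to their median, and likewise in the authors' table, mouse 8 of feed G was highest for 3 of the 4, Cr2 being the exception. The share of detected probes was 42.1% and 47.6% in mice 1 and 3 of feed K and 41.2% in mouse 4 of feed K. Mouse 3 of feed K had the most spots marked as failed, 1045 against 432 to 851 on the other arrays. No spot of a member probe was marked as failed in any mouse. With failed spots kept, mice 1 and 3 of feed K were again lowest for 4 members. The part of other differences between the arrays was not tested. In bulk tissue, fewer B cells in the piece and less of these RNAs per B cell cannot be told apart.

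Over all 7 members and with no filter, undetected values included, the median SD of log2 signal over the 9 mice was 0.98, compared with 0.55 over all 15667 genes that could be fitted. The range passed 4-fold for 6 of the 7 members, Blk being the exception with 2.31-fold, where the share among those 15667 genes was 37.6%. With the lowest value raised to the lowest detected signal of its array, the range was 6.05-fold for Cd22 and 5.04-fold for Pax5. These are no lower limits, since an undetected value can lie above that signal. Cd79b in mouse 3 of feed K was undetected at 6.93, where the lowest detected signal was 6.06. Without mice 1 and 3 of feed K, an alternative chosen after seeing the data, the ranges were 2.41-fold for Ms4a1, 2.92-fold for Cd79a, 3.42-fold for Cd79b and 3.1-fold for Cr2. The range of Cd22 was 5.24-fold without the pair and 7.68-fold with it, and those of Blk (2.31-fold) and Pax5 (9.18-fold) were the same in both. The lowest values of these 3 genes were below the threshold.

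The comparison of the feeds asked whether the B cell genes differed between mice kept on feeds B, K and G. The mean of Ms4a1 was 9.66 ± 0.62 on feed B, 8.60 ± 1.5 on feed K and 9.66 ± 0.51 on feed G (SD, n = 3 mice each). Cd79a had 10.47 ± 0.27, 8.75 ± 1.7 and 10.03 ± 0.77, Cd79b 9.30 ± 0.40, 8.02 ± 1.29 and 8.74 ± 0.87, and Cr2 8.89 ± 0.39, 7.02 ± 1.8 and 8.17 ± 0.59, each on feeds B, K and G in this order (SD, n = 3). From high to low the means were in the order B, G and K, with B and G 0.01 apart for Ms4a1 and the SD largest on feed K. No neighbours in this order passed limma's adjusted test. Feeds B and K overlapped for each of the 7 members. Few genes had all values of feed B above all of feed K, 3.68% of those detected in at least 3 mice. The overlap is therefore no trait of the members. For Ms4a1, Cd79a, Cd79b and Cr2, mouse 4 of feed K lay among or above the mice of feed B.

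Across the feeds, 0 of 9652 genes passed an adjusted p of 0.05 in limma's F test (0.0%), and so none of the 5 members tested did. At an unadjusted p under 0.05 the count was 518 genes (5.37%) and no member. The adjusted p was 0.903 for all 5 members. Blk and Pax5, which were detected in too few mice to be tested, had an adjusted p of 0.957 and 0.959 in the limma fit without the filter. In the 3 pairs of feeds 0 genes passed as well, with 609, 554 and 438 genes under an unadjusted 0.05 in feed K minus feed B, feed G minus feed B and feed G minus feed K. An exact permutation test of the ordinary F statistic, without limma's moderation, was run over 280 splits of the mice. It covered the 9556 tested genes with values in all mice. By this test the p of the 5 members lay between 0.154 and 0.414, and 0 genes passed after adjustment. The smallest p that 280 splits allow is too large to pass adjustment unless very many genes share it. That count of 0 therefore adds little to limma's result. Both limma's p-values and those of the permutation set the differences between feeds against the spread of the 3 mice within each feed. Whole families were kept on 1 feed, so differences between families are not separated from those between feeds.

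Feed K had the lower mean than feed B for the 5 members tested, where 43.1% of all tested genes did, and likewise with arrays scaled to their median and with the authors' table. Cd22 is 1 of these 5, but it was detected in no mouse of feed K and in 1 of feed B. It passed the filter through feeds B and G alone, so its lower mean on feed K adds no weight to the count. For Blk and Pax5, undetected in 7 of 9 mice, no direction is given. The difference of feed K minus feed B was -1.87 ± 0.79 on the log2 scale for Cr2 (SE, limma, adjusted p = 0.786), and its 95% interval ran from -3.69 to -0.06. It was detected in 1 of the 3 mice of feed K, and with undetected signals set to the lowest detected signal of their array the difference was -1.20 ± 1.31 (SE, limma, adjusted p = 0.883). Cr2 was the only member below an unadjusted 0.05 there, as were 1.97% of all tested genes in that direction. The differences were -1.72 ± 0.77 for Cd79a, -1.27 ± 0.66 for Cd79b, -1.07 ± 0.70 for Ms4a1 and -1.07 ± 0.60 for Cd22, with adjusted p from 0.787 to 0.843 in limma. The median over the 5 tested members was -1.27, and that over all tested genes 0.05.

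Feed G lay between the other feeds or beside feed B. The difference of feed G minus feed B ranged from -0.73 for Cr2 to 0.43 for Cd22, and that of Ms4a1 was -0.01 with a 95% interval from -1.61 to 1.60. An interval of this width does not show that feeds B and G gave the same level. For feed G minus feed K, Cd22 had a difference of 1.5 ± 0.60 (SE, limma, adjusted p = 0.96), and it was the only member under an unadjusted 0.05, as were 2.14% of all tested genes in that direction. Cd22 was also the only member with all values of feed G above all of feed K, a pattern held by 6.31% of genes, but it was detected in no mouse of feed K. The other differences of feed G minus feed K were 1.06 for Ms4a1, 1.28 for Cd79a, 0.72 for Cd79b and 1.15 for Cr2, with adjusted p of 0.96 or above in limma. The comparisons with feed K share its mice, so their sizes are not independent of each other.

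**Figure D3:**
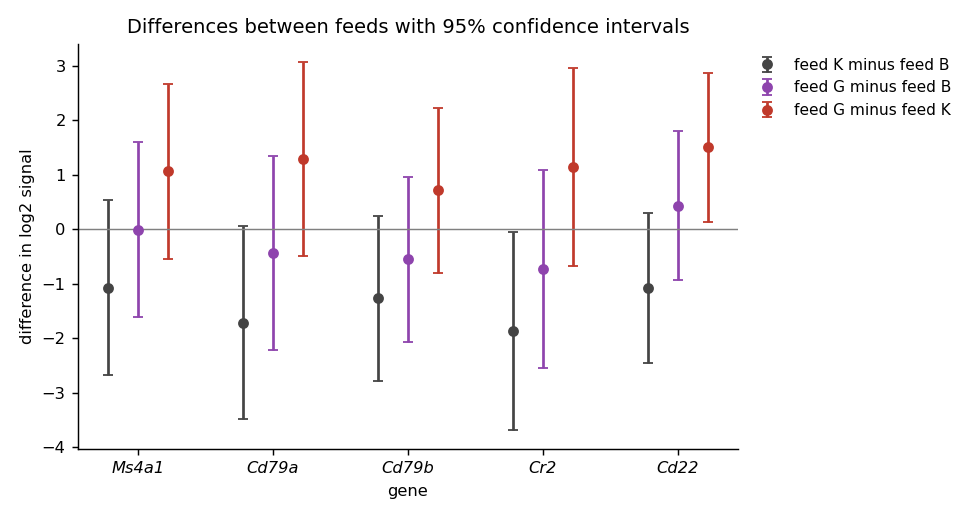
Difference in mean log2 signal between feeds for the 5 B cell genes that were tested, with 95% confidence intervals from limma's moderated fit (n = 3 mice per feed). The intervals span 0 for all but Cr2 in feed K minus feed B, which ends at -0.06, and Cd22 in feed G minus feed K, which starts at 0.13, and Cd22 was below the detection threshold in all mice of feed K.

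The size of the differences depended on single mice of feed K. Without mouse 4, feed K minus feed B was -2.69 ± 0.44 for Cd79a (SE, limma, adjusted p = 0.58), -2.82 ± 0.52 for Cr2 (adjusted p = 0.713), -1.98 ± 0.52 for Cd79b, -1.92 ± 0.43 for Ms4a1 and -1.0 for Cd22. Unadjusted, 4 of the 5 members were then under 0.05 with the lower mean on feed K, where 1.79% of genes were, but 0 of 9511 genes passed after adjustment. Without mouse 3 the differences were smaller for the members detected in 5 or more mice, at -1.04 for Cr2, -0.53 for Ms4a1, -0.73 for Cd79b and -1.36 for Cd79a. Without mouse 1 that of Cd79a was -1.11 and that of Cd22 -0.72.

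The members that were detected in 5 or more mice moved together over the 9 mice. For the 6 pairs of Ms4a1, Cd79a, Cd79b and Cr2, Pearson's r lay between 0.89 and 0.94 (exact permutation p from 0.000237 to 0.00347, adjusted over the 6 pairs from 0.0014 to 0.00347). Spearman's rho lay between 0.80 and 0.93 (exact permutation p from 0.00075 to 0.0138, adjusted from 0.0045 to 0.0138). These genes were chosen with their values known, so the p-values are no independent evidence. When mice 1 and 3 of feed K, the 2 mice farthest from the median, were left out, r was 0.97 for Cd79a with Cd79b, 0.80 for Ms4a1 with Cd79b, and lowest for Ms4a1 with Cr2 at 0.54. With the mean of each feed subtracted, r lay between 0.82 and 0.95. These values still hold the distance of mouse 4 of feed K from mice 1 and 3, and the relation was not tested within feeds B and G alone.

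Genes whose profile over the 9 mice was most like the mean z score of these 4 members were sought among 8511 genes detected in at least 5 mice, as a description without a test. Among the 10 closest were Cxcl13 (r = 0.98), Pou2af1 (0.96), Ly108 (0.95), Clu (0.95), BB219290 (0.94), Mfge8 (0.91), Nfkbie (0.90), Snx24 (0.90) and D10Ertd749e (0.89). An r of 0.9 or more was reached by 9 genes (0.106%), and the median r over all genes was -0.04. Cxcl13 encodes the chemokine that draws B cells into follicles, and Pou2af1 a coactivator of octamer factors. With arrays scaled to their median, 6 of the 10 were again among the 10 closest, and likewise 6 with the authors' table of values.

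Cxcl13 had log2 signals of 11.83, 10.28 and 11.13 in mice 7, 8 and 10 of feed B, 6.24, 6.71 and 10.86 in mice 1, 3 and 4 of feed K, and 9.20, 11.59 and 9.73 in mice 4, 8 and 11 of feed G. It was detected in 7 mice, and both mice without detection were mice 1 and 3 of feed K. Clu, which encodes clusterin, had 10.71 and 10.74 in mice 1 and 3 of feed K and between 12.39 and 13.95 in the other mice, and it was detected in all of them. Mfge8, whose product tags apoptotic cells, followed at a smaller scale, with 11.11 and 11.42 in the low pair and 11.94 to 12.98 elsewhere.

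The profile of probe 1 of Cd79a was searched in the same way after its difference from probe 2 had been seen. Its closest genes were 1110063C11Rik (r = 0.95), BC060267 (0.94), 2010001M09Rik (0.93), which is on the plasma cell list as Mzb1, Arhgdib (0.93) and Cd52 (0.92). Arhgdib and Cd52 are genes of leukocytes in general, and Arhgdib had 6.95 in mouse 1 and 9.71 in mouse 3 of feed K. Mfge8 was the only gene on both lists of 10.

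Other B cell genes were read from a list of 25, of which 20 were matched to the array and 3 of these were detected in no mouse. None of the 13 tested passed the adjusted test in any comparison of feeds (0.0% of all genes), 12 of 13 had the lower mean on feed K than on feed B, where 43.1% of all tested genes did, and the median difference was -0.58, against 0.05 over all tested genes. The lowest and second lowest values lay in mice 1 and 3 of feed K for 8 of the 13, against 2.07% of all genes. Among the brightest of the list were Pou2af1, Ltb and Cd37. Pou2af1 had 8.01 and 7.63 in mice 1 and 3 of feed K and 9.03 to 10.71 elsewhere, whereas Ltb, a lymphotoxin chain made by T cells as well, had 7.40 in mouse 1 but 9.69 in mouse 3 of feed K. Cd37, a tetraspanin, was lowest in mouse 8 of feed B with 6.74. Mouse 8 of feed B was low for this list as a whole, at a mean of -0.99 from the genes' medians, and 3 of the 20 genes were detected in it.

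Among the 16 genes of B cell receptor signalling, the most abundant were shared with other cells and varied little. Grb2, an adaptor of all cells, ranged over 1.39-fold, and Lyn, a kinase also of myeloid cells, over 1.8-fold. The adaptor Blnk had 10.08 and 10.32 in mice 1 and 3 of feed K and 10.55 to 11.45 elsewhere, and Ptpn6, the phosphatase that acts with Cd22, had 9.58 and 9.63 against 9.87 to 10.66. Of the 11 tested genes, none passed the adjusted test between feeds. The low pair of mice was lowest for 2 of the 11, Blnk and Ptpn6, against 2.07% of all genes.

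Follicle chemokines and stroma resembled the members in part. Of 14 array genes on this list, 8 were tested and 0 passed the adjusted test between feeds, with a median of -0.68 for feed K minus feed B. Mice 1 and 3 of feed K were lowest for 4 of the 8, against 2.07% of all genes. These were Cxcl13, Ccr6, Glycam1 and the probe shared by Ccl21a, Ccl21b and Ccl21c. The Ccl21 probe, for a chemokine of lymphatic and T zone stroma, had 12.72 and 12.77 in this pair and 13.06 to 14.06 elsewhere, and it was detected in all mice. Ccl19, a T zone chemokine, was 10.04 in mouse 1 and 8.41 in mouse 3 of feed K, with 9.51 to 11.36 in the others. Of the M cell and follicle epithelium list, Marcksl1 had its lowest values in the same pair, 10.65 and 10.45, while Ccl9 was lowest in mouse 3 with 6.93 and stood at 9.05 in mouse 1.

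Germinal centre genes were mostly out of reach. Bcl6, the factor that defines the germinal centre programme, was detected in 1 of 9 mice, and S1pr2 in 5. Fas and Ung, which other cells also express, were detected in all mice. Fas was 10.69 and 10.61 in mice 1 and 3 of feed K, above its 9.36 to 10.26 in the other mice, the opposite of the members.

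Of the plasma cell and T cell genes tested, 1 had its lowest and second lowest values in mice 1 and 3 of feed K, against 2.07% of all genes. Jchain, which joins secreted antibody, was 12.48 in mouse 1 and 13.54 in mouse 3 of feed K and lowest in mouse 4 of feed K with 11.19, a mouse high in the members, and the low pair was lowest for none of the 9 plasma cell genes tested. Mzb1, a chaperone of antibody secretion, was lowest in mouse 1 of feed K with 7.43 but stood at 9.17 in mouse 3, and its r with the mean of the members was 0.77. Xbp1, the secretory regulator, ranged over 1.45-fold. Over the plasma cell genes detected in at least 5 mice, the mean difference from the median was -0.44 in mouse 1 and 0.20 in mouse 3 of feed K. The T cell gene Ccl5 was highest in mouse 3 of feed K with 13.96 and lowest in mouse 4 with 8.39, and Cd3g was likewise highest in mouse 3 with 11.38. Cd2, a receptor of B cells as well as T cells, was the 1 gene that placed the pair lowest, with 6.73 and 7.55, among 10 tested T cell genes. Over the 8 T cell genes detected in at least 5 mice, the mean difference from the median was 0.99 in mouse 3 and -0.58 in mouse 1 of feed K.

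The remaining lists were used to see what else differed in these pieces of gut, and no gene of any list passed the adjusted test between feeds. Absorptive cell genes lay between -0.52 and 0.20 in their mean difference from the median. All 8 of them that were tested had the higher mean on feed K than on feed B, where 56.9% of all tested genes did, and the median difference was 0.34. Among these, Slc5a1, the sodium-glucose cotransporter, had a difference of 1.14 ± 0.29 (SE, limma, adjusted p = 0.753), and the range over the mice was widest for Fabp1, a fatty acid binding protein, at 7.73-fold. Smooth muscle genes lay between -0.45 and 0.29. Myeloid genes placed the pair lowest for 2 of 9 tested genes, against 2.07% of all genes. These were Adgre1 and Cd14, within ranges of 1.53-fold and 1.74-fold. Ileal genes were high in mice 7 and 10 of feed B and mouse 11 of feed G, with mean differences of 0.97, 2.18 and 2.68, and Fabp6 had an r of 0.21 with the mean of the members. Mice 1 and 3 of feed K stood at -1.02 and -0.11 and mouse 4 of feed K at 0.10 in the ileal genes. Of the 7 acinar genes matched, 1 was detected in at least 5 mice, Cela1. For the adipocyte genes, which would mark attached fat, the pair stood at 0.24 and 0.32. The part of the position along the gut, of attached tissue and of the number of follicles in the piece was not tested.

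**Figure D4:**
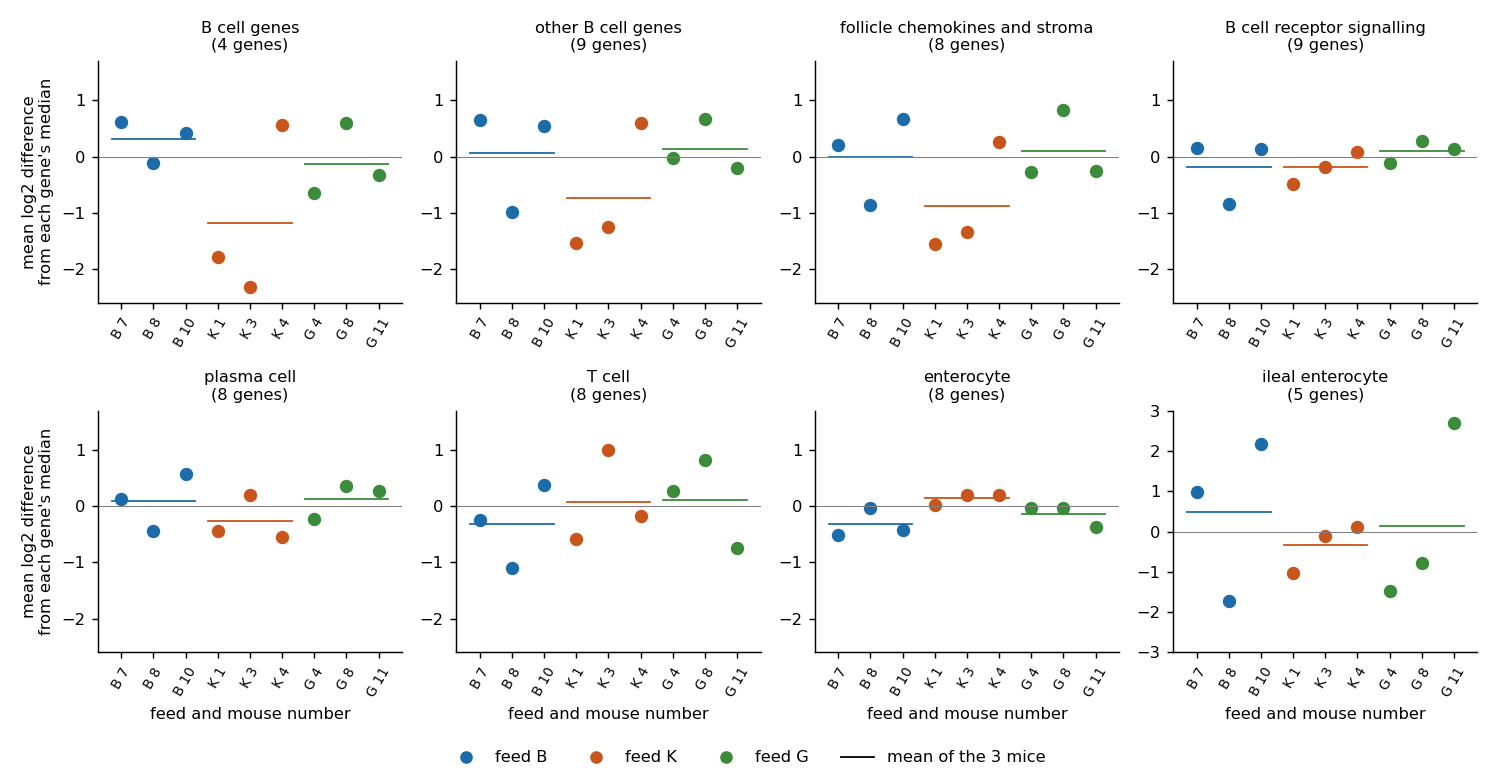
Mean difference of log2 signal from each gene's own median, over the genes of a list detected in at least 5 of 9 mice, for each mouse named by feed and number, with lines at the means of the 3 mice of a feed. The scale of the ileal panel is wider than that of the others. The 4 B cell genes stood at -1.78 and -2.32 in mice 1 and 3 of feed K, and the other B cell and follicle lists were low in the same pair. Mouse 8 of feed B was at -0.12 for the 4 B cell genes but low for other lists. It stood at -0.99 for other B cell genes, -0.86 for follicle, -0.85 for receptor signalling and -1.1 for T cell genes. The plasma cell and T cell lists were below 0 in mouse 1 of feed K and above 0 in mouse 3.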

How the data were processed

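Jejunal RNA of 9 mice was measured on 9 arrays. The authors deposited for each array the scanner's table, which gives per spot a signal intensity after background correction and spatial normalization, a standard deviation, a score of signal over noise and a flag score. The deposited series table holds linear signal values, and all 297108 of them equal the assay-normalized values of those tables. The scale that this normalization divides by is not given in the sources used here, nor is a genome build. The medians of its columns lay between 1.06 and 1.53. Flags above 5000 removed a spot. Quantile normalization of the signals with the arithmetic mean was followed by log2 and by the mean of a gene's probes.

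Feeds were compared with limma 3.58.1 in R 4.3.3 over the 9652 genes detected in at least 3 mice, with Benjamini-Hochberg adjustment over these genes. Other steps used Python 3.11.15, scipy 1.17.1 and pandas 2.3.3. The fit and the quantile step were tested on simulated data. Of the 159 list entries, 143 were matched by symbol, older symbol or RefSeq accession. All members are named, and of the other lists up to 4 of the brightest genes detected in at least 5 mice and the 10 genes most like the members, beside genes named to spell out a count or to show a contrast, which were picked after their values were seen. The members, lists and tests were chosen with earlier results of these data known. Some genes that this rule names are not reported here.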

Additional observations from a re-analysis of the deposited data

Results flagged for a closer look

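No member stood out by a single mouse over the 9 mice. Of 60 genes examined, each counted once, 8 had a lowest or highest mouse whose gap to the next, as a share of the whole range, passed Dixon's limit, and chance gives about 1 in 20, or 3. Mouse 11 of feed G was the mouse apart for 4 genes. It was highest for Marcksl1 (13.51, next 11.74, ratio 0.58), Nr1h4 (11.86, next 11.18, ratio 0.58) and Cela1 (9.70, next 9.03, ratio 0.58), and lowest for Lyz2 (15.63, next 17.20, ratio 0.58). Feed B held 3 of the low mice: mouse 10 for Ung (8.03, next 9.08, ratio 0.52), mouse 8 for Sgne1 (6.95, next 8.06, ratio 0.55) and mouse 7 for Cidec (7.54, next 9.08, ratio 0.51). Mouse 3 of feed K was lowest for Snx24 (9.13, next 9.46, ratio 0.55), which is among the 10 genes most like the members.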

How the results depend on the processing

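No member passed the adjusted threshold in any of the alternatives run for the 3 feed contrasts and the F test. The counts of all genes, 0 in each comparison, changed in few settings. With signals below the detection threshold set to the lowest detected signal of their array, 33 genes passed in the F test, 24 in feed K minus feed B, 35 in feed G minus feed B and 4 in feed G minus feed K. Without moderated variance 1 gene passed in the F test, 1 in feed G minus feed B and 1 in feed G minus feed K. Leaving out 1 mouse in turn gave 0 to 3 genes in the F test, 0 to 10 in feed K minus feed B, 0 to 3 in feed G minus feed B and 0 in feed G minus feed K, and the counts above 0 came without mouse 10 of feed B. The cause was not tested. Of 270 recomputed member differences, 8 had another sign, all in feed G minus feed B, for Ms4a1 (up to 0.54 with median scaling), Cd79a (0.12 with median scaling) and Cd22 (-0.10 without mouse 7 of feed B), and the smallest adjusted p was 0.385. Scaling to the median moved the median difference of all tested genes to 0.41 in feed K minus feed B and 0.53 in feed G minus feed B, and the series table to 0.21 and 0.30, so that the sign for Ms4a1 and Cd79a there is to be read against this shift.

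The median SD of the 7 members, 0.98, lay between 0.82 and 1.05 when 1 mouse was left out and was 0.57 without mice 1 and 3 of feed K, as fewer mice with low values remain. No paired analysis was possible, because nothing in the sources used here pairs mice of different feeds, and a shared mouse number is not said to do so. The number of arrays and the noise of dim spots limit the precision, above all for Cd22, Blk and Pax5.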
